A study of Mus musculus with 43 samples.

Results

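The genes described here make, move or export cholesterol, and they were chosen by name: 32 genes, of which 18 encode enzymes of cholesterol synthesis, 4 encode parts of the SREBP control system and 10 act in sterol uptake, storage, transport or efflux. Each of the 32 was found as 1 row in each of 3 tables of mouse astrocyte RNA-seq (24537 genes per table), and all 32 passed the filter on low values in each table. Astrocytes are glial cells that make much of the cholesterol of the brain, where blood-borne lipoproteins hardly enter, and pass it to neurons on particles built around apolipoprotein E. When sterol runs low in the endoplasmic reticulum, Scap carries SREBP to the Golgi, where it is cleaved into a transcription factor for synthesis and uptake genes, while Insig1 holds Scap back when sterol is plentiful. When oxysterols accumulate, the nuclear receptors LXR alpha (Nr1h3) and LXR beta (Nr1h2) turn on efflux genes such as the transporters Abca1 and Abcg1.

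The samples were 43 libraries in 9 groups. In the disorder set, astrocytes were immunopanned (captured on antibody-coated dishes) from the cortex of mice at postnatal day 7 and kept for 12 days in defined medium without serum, from mouse models of 3 disorders and from wild-type mice. The groups were FXS (6 libraries), modelling Fragile X syndrome, RTT (6 libraries), modelling Rett syndrome, DS (4 libraries), modelling Down syndrome, and WT (6 libraries). The labels name the disorder and not the strain, allele or promoter behind each model. In the BMP6 set, wild-type astrocytes were prepared in the same way and either given BMP6, a secreted factor of the TGF-beta family, for the last 5 days (BMP6, n = 6) or left untreated (Alone, n = 6), with 1 library of each kind from each of 6 cultures. The preparation set held astrocytes grown by a method the labels call MD, which they do not spell out (MD cultured, n = 3), immunopanned and cultured astrocytes (IP cultured, n = 3) and astrocytes collected directly after immunopanning (IP acute, n = 3). No label ties the preparation libraries to different cultures or animals, and p-values for that set measure only the spread between its samples, which may be technical.

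Low values came in steps of 1 read, which put the depth at 10.6 M to 55.5 M reads per library (median 26.9 M), lowest in WT (10.6 M to 36.1 M). Astrocyte markers (12 genes, among them Aldh1l1, Gfap and Aqp4) were measured in every group and none was at 0 in all libraries of a group. IP acute libraries also held markers of other cells: 6 endothelial markers summed to 620 to 1160 there, against at most 2.93 in MD cultured and 3.67 in IP cultured libraries. Neuronal markers (8 genes) summed to 353 to 1600 in IP acute, 104 to 190 in MD cultured and 12.4 to 23.1 in IP cultured libraries. In whole-culture RNA, fewer cells of a type and less RNA per cell cannot be told apart. One library stood apart from its group in the preparation set, IP cultured 4: the sum of 6 cell cycle genes was 47.6 there and 408 and 419 in IP cultured 2 and 7. Its astrocyte markers summed to 8060, against 4400 and 4680 in IP cultured 2 and 7, and its oligodendrocyte precursor markers to 1170, against 2870 and 2820. Mural and fibroblast markers summed to 1570 there, against 520 and 354, and ciliated cell markers to 228, against 63.0 and 67.7. Its oligodendrocyte marker sum (1140) lay between those of the others (1410 and 660). The values of IP cultured 4 are given beside each result they touch.

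Promoter sequences are shown for 4 synthesis enzymes and 2 uptake and efflux genes, in each list those with the smallest p between preparations among genes with an entry. They are shown because most enzymes were lower together in culture and these 300 bases (250 before and 50 after the start, 5′ to 3′ on the gene's strand) lie where SREBP and its partner NF-Y can bind. Sequences come from RefSeq promoters of GRCm38.p6, in which 26 of the 32 genes had an entry. They lie at chr13:119690101-119690400 on the plus strand (Hmgcs1), chr8:64733529-64733828 on the minus strand (Msmo1), chr8:122443373-122443672 on the minus strand (Mvd), chr7:143822917-143823216 on the plus strand (Dhcr7), chr8:105943353-105943652 on the minus strand (Lcat) and chr2:91195067-91195366 on the minus strand (Nr1h3). Capitals mark the motifs searched on both strands: TCACNCCAC, a core of the sterol response element bound by SREBP, CCAAT, the core of NF-Y sites (ATTGG when it lies on the other strand), CACGTG, the E-box, and the direct repeat that forms the LXR element. No 2 matches overlapped in the sequences shown.
Hmgcs1: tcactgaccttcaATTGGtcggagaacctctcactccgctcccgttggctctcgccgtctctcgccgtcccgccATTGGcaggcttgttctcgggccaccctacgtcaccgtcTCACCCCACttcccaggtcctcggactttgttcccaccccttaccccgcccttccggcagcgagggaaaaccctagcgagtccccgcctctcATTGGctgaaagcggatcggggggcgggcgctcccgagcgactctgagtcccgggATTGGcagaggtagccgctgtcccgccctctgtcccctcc
Msmo1: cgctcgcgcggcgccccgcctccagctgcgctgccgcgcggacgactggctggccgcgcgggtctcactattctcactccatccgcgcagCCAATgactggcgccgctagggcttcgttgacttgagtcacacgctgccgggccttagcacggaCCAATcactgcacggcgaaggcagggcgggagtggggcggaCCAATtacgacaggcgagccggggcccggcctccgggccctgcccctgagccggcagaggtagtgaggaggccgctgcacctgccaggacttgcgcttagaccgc
Mvd: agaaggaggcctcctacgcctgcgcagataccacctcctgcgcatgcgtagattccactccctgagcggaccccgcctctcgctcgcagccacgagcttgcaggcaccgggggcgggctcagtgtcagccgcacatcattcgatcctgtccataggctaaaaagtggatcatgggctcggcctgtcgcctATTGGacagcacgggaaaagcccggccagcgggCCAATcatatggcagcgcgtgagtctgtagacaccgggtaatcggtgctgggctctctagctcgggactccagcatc
Dhcr7: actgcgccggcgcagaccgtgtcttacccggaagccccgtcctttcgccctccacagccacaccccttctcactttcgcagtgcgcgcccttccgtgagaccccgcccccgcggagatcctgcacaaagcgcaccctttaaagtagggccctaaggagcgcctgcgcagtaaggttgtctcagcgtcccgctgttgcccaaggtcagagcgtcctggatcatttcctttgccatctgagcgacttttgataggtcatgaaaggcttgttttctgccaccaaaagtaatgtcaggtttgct
Lcat: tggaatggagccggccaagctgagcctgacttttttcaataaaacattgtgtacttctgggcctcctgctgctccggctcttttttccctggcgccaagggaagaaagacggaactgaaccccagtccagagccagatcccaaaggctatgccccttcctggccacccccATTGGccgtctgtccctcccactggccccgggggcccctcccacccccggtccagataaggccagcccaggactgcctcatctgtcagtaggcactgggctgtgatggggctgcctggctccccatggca
Nr1h3: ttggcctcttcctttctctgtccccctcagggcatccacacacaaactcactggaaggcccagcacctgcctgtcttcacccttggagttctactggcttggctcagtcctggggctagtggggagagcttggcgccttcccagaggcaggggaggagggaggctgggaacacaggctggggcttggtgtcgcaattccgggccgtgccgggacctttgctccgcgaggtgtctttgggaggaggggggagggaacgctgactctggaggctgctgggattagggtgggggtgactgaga
Among the 26 members with an entry, Hmgcs1, the enzyme that makes HMG-CoA, was the only member with a TCACNCCAC match. The match lay 137 bases before its start, and Hmgcs1 also held 4 CCAAT matches. Fdps, Fdft1, Sqle, Stard4, Npc1 and Abcg1 had no entry and were not searched. Msmo1, a sterol methyl oxidase, held 3 CCAAT matches and Mvd, which forms isopentenyl diphosphate, held 2, while Lcat, a cholesterol esterifying enzyme, held 1 and the sequences shown for Dhcr7 and Nr1h3 held none of the 4 motifs. Dhcr7 has 3 promoters in the table, of which 1 holds CCAAT and 1 holds CACGTG, and the sequence shown is the one nearest the start of the transcript named in the deposited tables. Over all members with an entry, CCAAT lay in 14 of 18 promoters of 15 synthesis genes (77.8%), in 4 of 7 promoters of the SREBP control genes and in 3 of 10 promoters of 7 uptake and efflux genes, against 37.4% of all 32851 promoters. CACGTG lay in 3 of 18 promoters of the synthesis genes, 3 of 7 of the SREBP control genes and 1 of 10 of the uptake and efflux genes. No promoter of a member held the LXR form. The TCACNCCAC core lay in 1.24% of all promoters, CACGTG in 7.15% and the LXR form in 0.0152%. A match describes letters in this window only, and its part in the differences between preparations was not tested.

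In WT cultures the members differed widely in level per length. Apoe, the main lipoprotein of astrocytes, averaged 4416 FPKM ± 604 (SD, n = 6) and lay far above the rest. Hmgcs1 came next at 198 ± 31.1 FPKM, and then Abca1 (130 ± 39.3 FPKM), the SREBP gene Srebf1 (121.8 ± 18.8 FPKM), Sqle, the squalene epoxidase (110 ± 11.2 FPKM), and Npc2, which carries cholesterol out of lysosomes (104 ± 6.66 FPKM). The ranges of Abca1, Srebf1, Sqle and Npc2 overlapped, so their order is not fixed by these libraries. The lowest were Nr1h3 (3.60 ± 0.348 FPKM), Abcg1 (2.42 ± 0.264 FPKM) and Idi1 (0.788 ± 0.177 FPKM). In Alone cultures, measured in another table, the 8 highest members stood in the same order, with Apoe at 3331 ± 1471 FPKM and Hmgcs1 at 200.1 ± 55.0 FPKM. Idi1 is uncertain, since 21.3% of the 50-base stretches of its exons also occur in other annotated genes, as do 45.9% of those of Acat2 and 82.0% of those of Fdps. Strand use in counting is not given in the sources used here, and exons of Fdft1 (18.3%), Scap (13.2%) and Hmgcs1 (12.1%) overlap genes on the other strand.

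The preparation set asked how culture and the way of culture change astrocytes. Compared with IP acute cells, IP cultured cells had lower levels of 17 of the 18 synthesis enzymes (median log2 difference -1.24, against -0.04 over all 14101 genes tested). Across all 32 members 5 were higher and 22 lower by limma at an adjusted p under 0.05, where 17.8% of all genes tested were called higher and 25.5% lower. Ebp, the sterol isomerase, was the synthesis gene that was not called (log2 -0.10). Values in this table are the authors' normalised signal, whose unit the header does not name, and differences are on the log2(signal + 0.5) scale.

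Among the enzymes, Msmo1 had a signal of 147, 77.4 and 126 in IP cultured 2, 4 and 7, against 646, 432 and 525 in IP acute 2, 4 and 7 (log2 -2.22, SE 0.26, limma adjusted p = 0.000333). Fdft1, the squalene synthase, had 33.3, 18.9 and 35.9 in IP cultured cells, against 82.8, 89.1 and 90.8 in IP acute cells (log2 -1.61, SE 0.23, limma adjusted p = 0.000796). For each gene all IP cultured libraries lay below all IP acute libraries, as they did for 29.4% of all genes (and above for 22.5%), and IP cultured 4 was the lowest. Dhcr7, which makes cholesterol from its last precursor, had 101, 37.5 and 96.3 in IP cultured cells, against 232, 203 and 235 in IP acute cells (log2 -1.63, SE 0.33, limma adjusted p = 0.00431). Sc5d, a sterol desaturase, had 80.8, 49.9 and 63.3 in IP cultured cells, against 140, 119 and 141 in IP acute cells (log2 -1.06, SE 0.17, limma adjusted p = 0.00162). Mvd had 52.9, 25.2 and 63.6 in IP cultured cells, against 107, 113 and 121 in IP acute cells (log2 -1.36, SE 0.30, limma adjusted p = 0.00634). No IP cultured library reached the IP acute range of these 3 enzymes. Idi1, the isopentenyl isomerase, stood at 1.95, 1.01 and 1.74 in IP cultured cells, against 3.41, 4.35 and 5.23 in IP acute cells (log2 -1.24, SE 0.25, limma adjusted p = 0.00451). It did not overlap either. The other 11 called enzymes fell by 0.75 (Pmvk) to 2.29 (Tm7sf2, a sterol reductase, SE 0.51) on the log2 scale, Hmgcs1 by 1.24. Without IP cultured 4 the count of lower synthesis genes was again 17, with a median of -0.93 and 28.9% of all genes called lower, and over the 6 libraries left out in turn it ran from 12 to 17, lowest without IP acute 7.

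**Figure D1:**
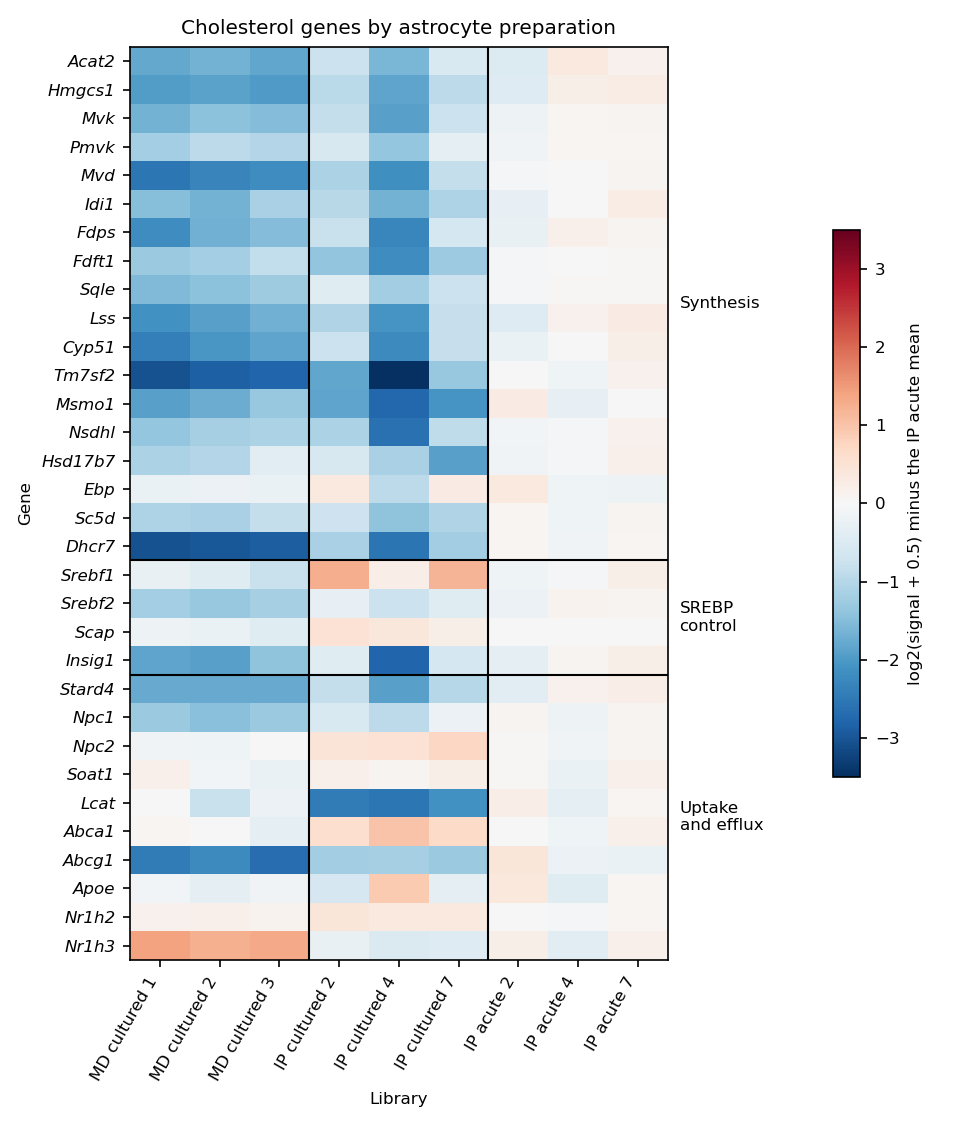
Level of each of the 32 genes in the 9 preparation libraries, as log2(signal + 0.5) minus the mean of the 3 IP acute libraries (color, blue lower and red higher). Synthesis genes are at the top, SREBP control genes in the middle and uptake and efflux genes at the bottom, and IP cultured 4 shows the lowest synthesis levels of its group.

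The SREBP control genes did not move as 1 group between IP cultured and IP acute cells. Srebf2, the SREBP that acts mostly on cholesterol genes, had 138, 101 and 126 in IP cultured cells, against 146, 183 and 182 in IP acute cells (log2 -0.49, SE 0.14, limma adjusted p = 0.0238). Srebf1, whose product acts mostly on fatty acid genes, had 266, 129 and 249 in IP cultured cells, against 99.3, 105 and 126 in IP acute cells (log2 0.90, SE 0.27, limma adjusted p = 0.0261). Scap had 87.6, 80.7 and 70.8 in IP cultured cells, against 60.5, 61.8 and 62.7 in IP acute cells (log2 0.36, SE 0.11, limma adjusted p = 0.0241). The groups did not overlap for any of these 3 genes. Leaving out single libraries lost the calls of Srebf1 and Scap without 4 of 6 each and that of Srebf2 without 2 of 6, and with only these 2 groups in the fit Srebf1 and Srebf2 had limma adjusted p-values of 0.0508 and 0.06. Insig1 had 128, 25.1 and 114 in IP cultured cells, against 140, 187 and 201 in IP acute cells, and its difference did not pass the threshold (log2 -1.27, SE 0.54, limma adjusted p = 0.0876, and -0.53 with an adjusted p of 0.0529 without IP cultured 4, its lowest library).

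Uptake and efflux genes went both ways, 3 higher and 4 lower, with a median of -0.21. Lcat, which esterifies cholesterol on lipoprotein particles, had 19.7, 18.7 and 25.0 in IP cultured cells, against 129, 88.9 and 116 in IP acute cells, the largest fall of the 32 genes (log2 -2.36, SE 0.22, limma adjusted p = 0.000104). Abcg1 had 3.82, 4.04 and 3.57 in IP cultured cells, against 12.9, 8.31 and 8.13 in IP acute cells (log2 -1.23, SE 0.21, limma adjusted p = 0.00196). The other transporter, Abca1, was higher in culture, with 140, 186 and 147 in IP cultured cells, against 91.5, 82.9 and 105 in IP acute cells (log2 0.75, SE 0.15, limma adjusted p = 0.00484). Both transporters are LXR targets, and here they lay on opposite sides of the acute level. Npc2 had 181, 186 and 218 in IP cultured cells, against 134, 121 and 140 in IP acute cells (log2 0.56, SE 0.11, limma adjusted p = 0.00362). Nr1h2 had 44.7, 42.3 and 41.9 in IP cultured cells, against 32.99, 31.9 and 34.4 in IP acute cells (log2 0.37, SE 0.08, limma adjusted p = 0.00619). Stard4, a sterol carrier between membranes, had 22.3, 10.3 and 19.8 in IP cultured cells, against 30.6, 44.4 and 47.3 in IP acute cells (log2 -1.25, SE 0.28, limma adjusted p = 0.0068). Npc1, the lysosomal partner of Npc2, had 63.3, 48.7 and 80.8 in IP cultured cells, against 99.5, 81.3 and 98.2 in IP acute cells (log2 -0.55, SE 0.18, limma adjusted p = 0.0328), and its adjusted p was 0.0522 by limma without IP cultured 4. The groups did not overlap for any of these 4 genes. Apoe stood at 5683, 16242 and 6733 in IP cultured cells, against 11124, 6370 and 8914 in IP acute cells (log2 -0.01), and the library with the lowest synthesis genes had the highest Apoe. Nr1h3 and Soat1, which stores cholesterol as esters, were not called.

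Other genes of the pathway were tested beside the members. Of 29 further sterol genes listed, 27 were tested, and 16 were lower and 1 higher in IP cultured than in IP acute cells (median -0.88). Lrp8 (-2.82, SE 0.23) and Vldlr (-2.18, SE 0.27), both receptors for apolipoprotein E, were among the lower ones (limma adjusted p = 5.6e-05 and 0.000424). Of 14 fatty acid synthesis genes none was lower and 2 were higher, Lpin1, a phosphatidate phosphatase (21.3 ± 3.38 in IP cultured and 9.39 ± 1.61 in IP acute cells, SD, n = 3 each, limma adjusted p = 0.000959) and Me1, the malic enzyme (0.83, SE 0.13, limma adjusted p = 0.00137). Markers of other cells moved with these differences: all 6 endothelial and all 8 neuronal markers were lower in IP cultured than in IP acute cells (medians -6.42 and -4.83), as were 4 of 12 microglial markers, which summed to 98.4 to 297 in IP cultured and 168 to 1800 in IP acute libraries. Of 8 oligodendrocyte markers 7 were higher (median 3.33), with sums of 660 to 1410 in IP cultured and 183 to 439 in IP acute libraries. Of 6 oligodendrocyte precursor markers 4 were lower and 1 higher (median -1.68), while their sums were 1170 to 2870 in IP cultured and 1170 to 1570 in IP acute libraries. Of 12 astrocyte markers 5 were lower and 1 higher (median -0.93), with sums of 4400 to 8060 in IP cultured and 6040 to 9010 in IP acute libraries. The part of any of these cells in the result was not tested.

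Astrocytes of the MD culture also had lower synthesis genes than IP acute cells: 16 of 18 were called lower, with a median of -1.59. Over the 32 members 1 was higher and 21 were lower, where 20.4% of all genes were called higher and 39.8% lower in this comparison and the median of all genes was -0.24. That median was -0.02 after scaling by the median of ratios, which gave the synthesis genes a median of -1.36. Dhcr7 had 26.6, 27.9 and 29.5 in MD cultured cells (log2 -2.97, SE 0.33, limma adjusted p = 0.000117) and Mvd had 19.2, 22.4 and 25.0 in MD cultured cells (log2 -2.34, SE 0.30, limma adjusted p = 0.000238), against the IP acute values given above. Hmgcs1 had 166, 175 and 161 in MD cultured cells, against 473, 741 and 767 in IP acute cells (log2 -1.94, SE 0.27, limma adjusted p = 0.0004). Sqle had 92.4, 99.9 and 114 in MD cultured cells, against 256, 276 and 281 in IP acute cells (log2 -1.41, SE 0.19, limma adjusted p = 0.000307). Acat2, a thiolase at the start of the pathway, had 16.6, 18.4 and 16.4 in MD cultured cells, against 42.2, 75.5 and 65.3 in IP acute cells (log2 -1.76, SE 0.29, limma adjusted p = 0.001). Msmo1 had 140, 159 and 211 in MD cultured cells, against 646, 432 and 525 in IP acute cells (log2 -1.65, SE 0.26, limma adjusted p = 0.00081). The MD cultured libraries lay below every IP acute library for all 18 synthesis genes, while Ebp and Hsd17b7 were not called. Groups did not overlap downward for 46.6% of all genes in this comparison. Of 12 astrocyte markers 4 were lower and 2 higher (median -1.07), with sums of 10400 to 13400 in MD cultured and 6040 to 9010 in IP acute libraries. All 12 microglial, all 6 endothelial, 7 of 8 neuronal and 5 of 6 oligodendrocyte precursor markers were lower (medians -3.27, -6.66, -3.49 and -4.71). All 5 ciliated cell markers tested were higher (median 3.55). Ciliated sums were 261 to 545 in MD cultured and 14.8 to 26.8 in IP acute libraries. None of 8 oligodendrocyte markers was called. The part of cell makeup in this result was not tested.

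Of the control genes, Srebf2 had 74.6, 67.5 and 75.7 in MD cultured cells, against 146, 183 and 182 in IP acute cells (log2 -1.22, SE 0.14, limma adjusted p = 0.000159). Insig1 had 48.1, 46.3 and 65.3 in MD cultured cells, against 140, 187 and 201 in IP acute cells (log2 -1.72, SE 0.54, limma adjusted p = 0.0227). Srebf1 and Scap were not called against IP acute cells. Of the uptake and efflux genes 3 were lower in MD cultured than in IP acute cells: Stard4, with 11.4, 11.4 and 11.5 in MD cultured cells (log2 -1.76, SE 0.28, limma adjusted p = 0.000718), Npc1, with 37.4, 33.3 and 37.4 (log2 -1.35, SE 0.18, limma adjusted p = 0.000281), and Abcg1, with 1.35, 1.63 and 1.09 (log2 -2.45, SE 0.21, limma adjusted p = 3.32e-05). Nr1h3 was the 1 member that was higher, with 16.4, 14.6 and 15.6 in MD cultured cells, against 6.91, 4.46 and 6.75 in IP acute cells (log2 1.32, SE 0.18, limma adjusted p = 0.000324). The call of Insig1 was lost without any 1 of MD cultured 1 or 2 and IP acute 4 or 7, and that of Nsdhl without any 1 of the 6 libraries (limma adjusted p up to 0.0737).

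Between the cultures, MD cultured against IP cultured, 9 of the 12 called members were control, lysosomal, uptake or efflux genes and 3 were enzymes. Of the 32 members 2 were higher and 10 lower, where 16.4% of all genes were called higher and 29.3% lower. Lcat had 109, 63.6 and 95.7 in MD cultured cells, against 19.7, 18.7 and 25.0 in IP cultured cells (log2 2.03, SE 0.22, limma adjusted p = 0.000334). Nr1h3 had 16.4, 14.6 and 15.6 in MD cultured cells, against 4.84, 4.01 and 4.24 in IP cultured cells (log2 1.73, SE 0.18, limma adjusted p = 0.00025). Every MD cultured library lay above every IP cultured library for both genes, as for 20.1% of all genes (below for 36.4%), and for Lcat 2 of the 3 MD cultured libraries lay within the IP acute range of 88.9 to 129. Abcg1 had 1.35, 1.63 and 1.09 in MD cultured cells, against 3.82, 4.04 and 3.57 in IP cultured cells (log2 -1.22, SE 0.21, limma adjusted p = 0.00216). Abca1 had 96.5, 92.9 and 74.2 in MD cultured cells, against 140, 186 and 147 in IP cultured cells (log2 -0.84, SE 0.15, limma adjusted p = 0.00298). The MD cultured libraries had more of the LXR alpha transcript and less of both LXR-regulated transporters.

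Srebf1 had 90.8, 81.2 and 63.0 in MD cultured cells, against 266, 129 and 249 in IP cultured cells (log2 -1.39, SE 0.27, limma adjusted p = 0.00375). Scap had 54.7, 52.0 and 46.1 in MD cultured cells, against 87.6, 80.7 and 70.8 in IP cultured cells, and Npc2 had 120, 118 and 133 in MD cultured cells, against 181, 186 and 218 in IP cultured cells, both without overlap. Srebf2 (-0.73, SE 0.14), Scap (-0.64, SE 0.11), Npc1 (-0.80, SE 0.18) and Npc2 (-0.65, SE 0.11) were lower as well (limma adjusted p = 0.00384, 0.00194, 0.00692 and 0.00194). Of the enzymes 3 were called, all lower: Dhcr7 (-1.34, SE 0.33), Mvd (-0.98, SE 0.30) and Sqle (-0.60, SE 0.19), with limma adjusted p-values of 0.0106, 0.0255 and 0.0282, and Mvd and Sqle were each lost without 4 of the 6 libraries left out in turn. Without IP cultured 4, whose enzyme levels lay near or below those of MD cultured cells, 12 of 18 enzymes and 22 of 32 members were lower, and Dhcr7 fell by 1.80 on the log2 scale; 35.2% of all genes were called lower in that fit. Of the fatty acid genes 7 of 14 were lower and none higher, with the smallest p for Fads2, a desaturase (-1.43, SE 0.21, limma adjusted p = 0.00121), and the largest difference for Gpam, a glycerol phosphate acyltransferase (-1.75, SE 0.33, limma adjusted p = 0.00346), and of the other sterol genes 6 were higher and 7 lower. Oligodendrocyte precursor markers summed to 241 to 502 in MD cultured and 1170 to 2870 in IP cultured libraries, and 8 oligodendrocyte markers to 235 to 242 in MD cultured and 660 to 1410 in IP cultured libraries. Astrocyte markers (4 of 12 higher and 1 lower) summed to 10400 to 13400 in MD cultured and 4400 to 8060 in IP cultured libraries. The part of any of these cells in these differences was not tested.

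The authors' deposited table gives its own calls for these comparisons. At an adjusted p under 0.05 the authors' deposited table had 5 members higher and 18 lower in IP cultured against IP acute cells, 2 higher and 21 lower in MD cultured against IP acute cells, and 2 higher and 9 lower in MD cultured against IP cultured cells.

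BMP6 asked what this factor does to wild-type astrocytes, and its largest effect on the 32 genes fell on Lcat. Lcat stood at 41.4, 98.4, 77.4, 91.9, 106 and 18.9 FPKM in the 6 cultures with BMP6, taken in the order of their numbers with culture 81 as the second, against 7.47, 4.02, 8.19, 6.98, 5.99 and 5.76 FPKM in the untreated libraries of the same cultures. All 6 BMP6 libraries lay above all 6 Alone libraries, by a factor that differed widely between cultures: the log2 difference was 1.63 in the lowest pair and 4.45 in the highest. The means were 72.4 ± 34.8 FPKM with BMP6 and 6.40 ± 1.48 FPKM in Alone (SD, n = 6 each, log2 3.22, SE 0.38, limma adjusted p = 0.000531). Nr1h3 ranged over 3.95, 4.12 and 5.63 FPKM with BMP6 (lowest, median and highest), against 1.54, 2.60 and 3.21 FPKM in Alone (log2 0.71, SE 0.16, limma adjusted p = 0.0124), again without overlap, as 2.99% of all genes in that direction. Srebf1 ranged over 142, 182 and 219 FPKM with BMP6, against 110, 132 and 163 FPKM in Alone, with overlap (log2 0.42, SE 0.13, limma adjusted p = 0.043). Soat1 was the lower one, at 12.3, 13.8 and 14.3 FPKM with BMP6, against 14.7, 15.5 and 17.2 FPKM in Alone (log2 -0.21, SE 0.06, limma adjusted p = 0.0443), and this call was lost after scaling by the median of ratios or quantile normalization. In this fit, with the group as the only factor, leaving out single libraries lost the call of Soat1 without 11 of 12. That of Srebf1 was lost without 8 of 12 (limma adjusted p up to 0.0981 for Soat1 and 0.0953 for Srebf1). These 3 higher and 1 lower of 32 compare with 5.38% of all 12185 genes called higher and 9.72% called lower.

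None of the 18 synthesis genes passed with the group as the only factor. Of their differences 15 of 18 were positive (median 0.19, against -0.08 over all genes), where 4617 of all 12185 genes were positive. At an unadjusted p under 0.05 by limma 3 of the 18 were higher and 0 lower. Of all genes 1260 were higher at that threshold, and 31.5% passed it in either direction. BMP6 and Alone libraries of a culture share a batch label and deviated together. With the culture as a block, 12 members were higher and 1 lower, where 11.4% of all genes were called higher and 24.1% lower. Those 12 were Lcat, Nr1h3 and Srebf1, the enzymes Tm7sf2 (0.80, limma adjusted p = 0.0135), Hmgcs1 (0.43, 0.029), Pmvk (0.41, 0.0231), Idi1 (0.40, 0.0484), Msmo1 (0.38, 0.036) and Sc5d (0.35, 0.0133), and Srebf2 (0.36, 0.0144), Stard4 (0.37, 0.0319) and Npc2 (0.35, 0.00623). All 12 were higher with BMP6 in 6 of 6 cultures, which adds no support, since the blocked fit chose them from the same pairs. Fdft1, Scap and Npc1 were also higher in 6 of 6 cultures without passing in either fit. Soat1 was the 1 lower member of the blocked fit (log2 -0.21, limma adjusted p = 0.0221). Its limma adjusted p in that fit was 0.055 without both libraries of culture 81. Culture 81 had the lowest synthesis genes of all untreated libraries, with a sum of 358.3 FPKM over the 18 enzymes, against 621.1 to 914.8 FPKM in the other 5. Leaving out both libraries of culture 81, an alternative chosen after seeing the data, left 10 members and 8.99% of all genes higher in the blocked fit, Pmvk and Idi1 no longer among them, and Hmgcs1 at 0.31 (limma adjusted p = 0.0402).

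Tm7sf2 shows the pairing: it stood at 12.9, 15.8, 16.3, 22.03, 24.6 and 9.46 FPKM with BMP6, in the same order of cultures, against 10.05, 4.85, 10.3, 8.59, 15.8 and 7.75 FPKM in Alone. The groups overlapped, while each culture was higher with BMP6. Hmgcs1 stood at 313, 194, 227, 303, 276 and 255 FPKM with BMP6, against 244, 94.4, 209, 201, 244 and 209 FPKM in Alone in the same order of cultures. The efflux transporters Abca1 and Abcg1 were each higher with BMP6 in 3 of 6 cultures. Apoe was higher with BMP6 in 6 of 6 cultures without passing in either fit. Beyond the members, Insig2, a retention factor for Scap (0.37, SE 0.07), Cyp46a1, which makes an oxysterol that leaves the brain (0.62, SE 0.11), and Mylip, which degrades lipoprotein receptors (1.19, SE 0.28), were higher, and Lbr, a sterol reductase of the nuclear envelope (-0.52, SE 0.16), was lower, of 26 further sterol genes tested (limma adjusted p = 0.00559, 0.00543, 0.0173 and 0.0428). Of 14 fatty acid genes 3 were higher, the desaturases Scd1 (1.30, SE 0.37), Fads2 (0.59, SE 0.16) and Fads1 (0.52, SE 0.14), with limma adjusted p-values of 0.034, 0.0287 and 0.0267. Cell cycle genes moved with the treatment (3 of 6 lower), with sums of 28.2 to 60.8 FPKM with BMP6 and 48.8 to 189 FPKM in Alone. Astrocyte markers moved too (1 of 11 tested was higher), with sums of 2060 to 4270 FPKM with BMP6 and 1180 to 3270 FPKM in Alone, higher with BMP6 in each culture. The part of either in these differences was not tested.

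**Figure D2:**
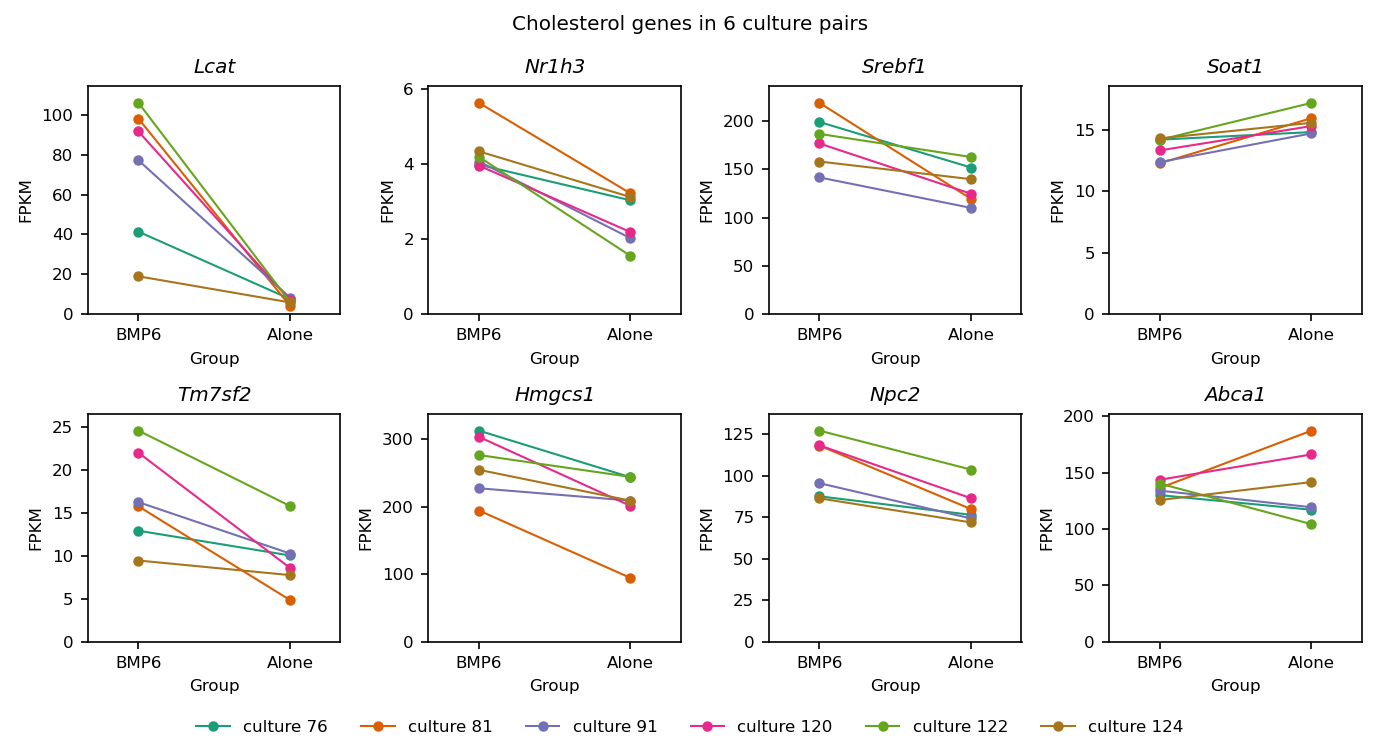
FPKM of 8 genes in the 6 cultures, with BMP6 at the left and Alone at the right of each panel and a line joining the libraries of a culture. Lcat was higher with BMP6 in each culture but by widely different amounts, Soat1 was lower in each, and Abca1 crossed.

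In the disorder set, the question was whether the models differ from WT, and 1 of the 32 genes passed in 1 model. Npc1, the lysosomal cholesterol transporter whose loss causes Niemann-Pick type C disease, stood at 17.97, 20.9, 14.3 and 21.2 FPKM in DS 19, 21, 32 and 39, against 21.3, 24.5 and 30.6 FPKM in WT (lowest, median and highest of 6). All 4 DS libraries lay below all 6 WT libraries, the nearest pair being 21.2 in DS and 21.3 in WT (log2 -0.43, SE 0.12, limma adjusted p = 0.0426). That is 0 members higher and 1 lower of 32, where 2.10% of all 12780 genes were called higher and 2.25% lower. The call was lost after scaling by the median of ratios, after quantile normalization, with only DS and WT in the fit, and without any 1 of DS 19 and 32 and WT 22, 26, 30, 34 and 35 (limma adjusted p up to 0.138). Of the next genes by p, Soat1 stood at 26.6, 29.4, 24.2 and 20.8 FPKM in DS, against 17.1, 19.98 and 22.2 FPKM in WT (log2 0.34, adjusted p = 0.0557 by limma), and Cyp51, the lanosterol demethylase, at 25.1, 30.6, 26.9 and 23.3 FPKM in DS, against 31.2, 35.5 and 45.2 FPKM in WT (log2 -0.47, SE 0.16, limma adjusted p = 0.103). Cyp51 did not overlap between DS and WT, as 3.74% of all genes did not in that direction, and Soat1 did. Marker lists moved with DS as well: 2 of 6 cell cycle genes were lower, with sums of 37.0 to 62.6 FPKM in DS and 58.9 to 135 FPKM in WT, and 2 of 4 neuronal and 1 of 7 oligodendrocyte markers tested were higher. Neuronal markers summed to 21.7 to 62.7 FPKM in DS and 11.8 to 54.0 FPKM in WT, and oligodendrocyte markers to 128 to 328 FPKM in DS and 116 to 299 FPKM in WT. All 8 microglial markers tested were on the negative side, with sums of 1.06 to 11.8 FPKM in DS and 2.84 to 41.2 FPKM in WT. The part of these cells in the DS differences was not tested.

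Members were also called between the models. Against FXS, Soat1 (0.48, SE 0.10, limma adjusted p = 0.00747) and Nr1h3 (0.45, SE 0.12, limma adjusted p = 0.0358) were higher and Cyp51 was lower in DS (-0.71, SE 0.16, limma adjusted p = 0.0154), where 1.53% of all genes were higher and 1.18% lower. Soat1 ranged over 16.2, 17.5 and 21.05 FPKM in FXS, so that only the lowest DS library overlapped it. Cyp51 ranged over 29.3, 43.6 and 57.9 FPKM in FXS. Against RTT, Soat1 was higher (0.46, SE 0.10, limma adjusted p = 0.011) and Npc1 lower in DS (-0.48, SE 0.12, limma adjusted p = 0.0289), where 1.53% of all genes were higher and 1.21% lower. Each of these calls was lost with only the 2 groups in the fit, and that of Nr1h3 also without 7, that of Npc1 without 5 and the others without 1 of the 10 libraries left out in turn. The comparisons share the DS libraries, and between RTT and FXS no member passed by limma, where 9 had an unadjusted p under 0.05, as 14% of all genes, and 0.0156% of all genes were called higher and 0.00782% lower.

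In FXS no member passed by limma (12 of 32 at an unadjusted p under 0.05, as 19.5% of all genes; 0% of all genes were called higher and 0.00782% lower). All 18 synthesis differences were positive (0.04 to 0.49), where 5931 of all 12780 genes tested were positive. The enzymes vary together between libraries, so these 18 are not independent. Of 14 fatty acid synthesis genes 12 were positive (median 0.22). Of the uptake and efflux differences 7 of 10 were negative (median -0.14). That count is near the share of all genes, of which 6849 were negative. Hmgcs1 ranged over 245, 267 and 343 FPKM in FXS, against 167, 189 and 251 FPKM in WT, overlapping only through the highest WT library (log2 0.49, SE 0.13, limma adjusted p = 0.105, and 0.0485 with only FXS and WT in the fit, where 0.967% of all genes were called higher). Stard4, listed with uptake, ranged over 16.4, 18.9 and 24.9 FPKM in FXS, against 11.9, 14.2 and 17.7 FPKM in WT, and had a positive difference like the enzymes (log2 0.45, SE 0.12, limma adjusted p = 0.107), as did Lcat (0.33) and Nr1h2 (0.04). Nr1h3 (-0.24, SE 0.10) and Npc2 (-0.24, SE 0.10) leaned the other way, with limma adjusted p-values of 0.199 and 0.202. The library FXS 31 was the highest of its group for 6 enzymes by a wide gap, for example Tm7sf2 with 28.8 FPKM, against 9.69 to 14.7 FPKM in the other 5. Ciliated cell markers (6 genes) summed to 249 to 781 FPKM in FXS and 115 to 312 FPKM in WT. All 8 microglial markers tested and all 9 mural and fibroblast markers were on the negative side, none of them called by limma (7 and 4 at an unadjusted p under 0.05). The microglial sums were at most 10.8 FPKM in FXS and 2.84 to 41.2 FPKM in WT, and the mural and fibroblast sums 442 to 1100 FPKM in FXS and 389 to 1760 FPKM in WT. The part of these cells in the FXS differences was not tested.

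RTT gave no called member by limma and 1 at an unadjusted p under 0.05, where 10.5% of all genes lay, Lcat, at 6.57, 10.9 and 12.6 FPKM in RTT, against 3.63, 5.51 and 15.4 FPKM in WT (log2 0.61, SE 0.29, limma adjusted p = 0.474; 0% of all genes were called higher and 0.00782% lower). Its synthesis genes had a median difference of 0.02, with 10 positive and 8 negative. Lcat was on the positive side in each model, with 0.82 in DS and values of 18.5, 9.57, 13.2 and 7.29 FPKM there, and no difference passed. Among the other sterol and fatty acid genes none was called in any model against WT, of 26 and 14 tested. Microglial markers lay on the negative side in RTT too, as in FXS and DS. All 8 tested were lower at an unadjusted p under 0.05 by limma (median -1.4), and none was called. Their sums were 0.464 to 4.2 FPKM in RTT and 2.84 to 41.2 FPKM in WT. The part of these cells in the RTT differences was not tested.

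**Figure D3:**
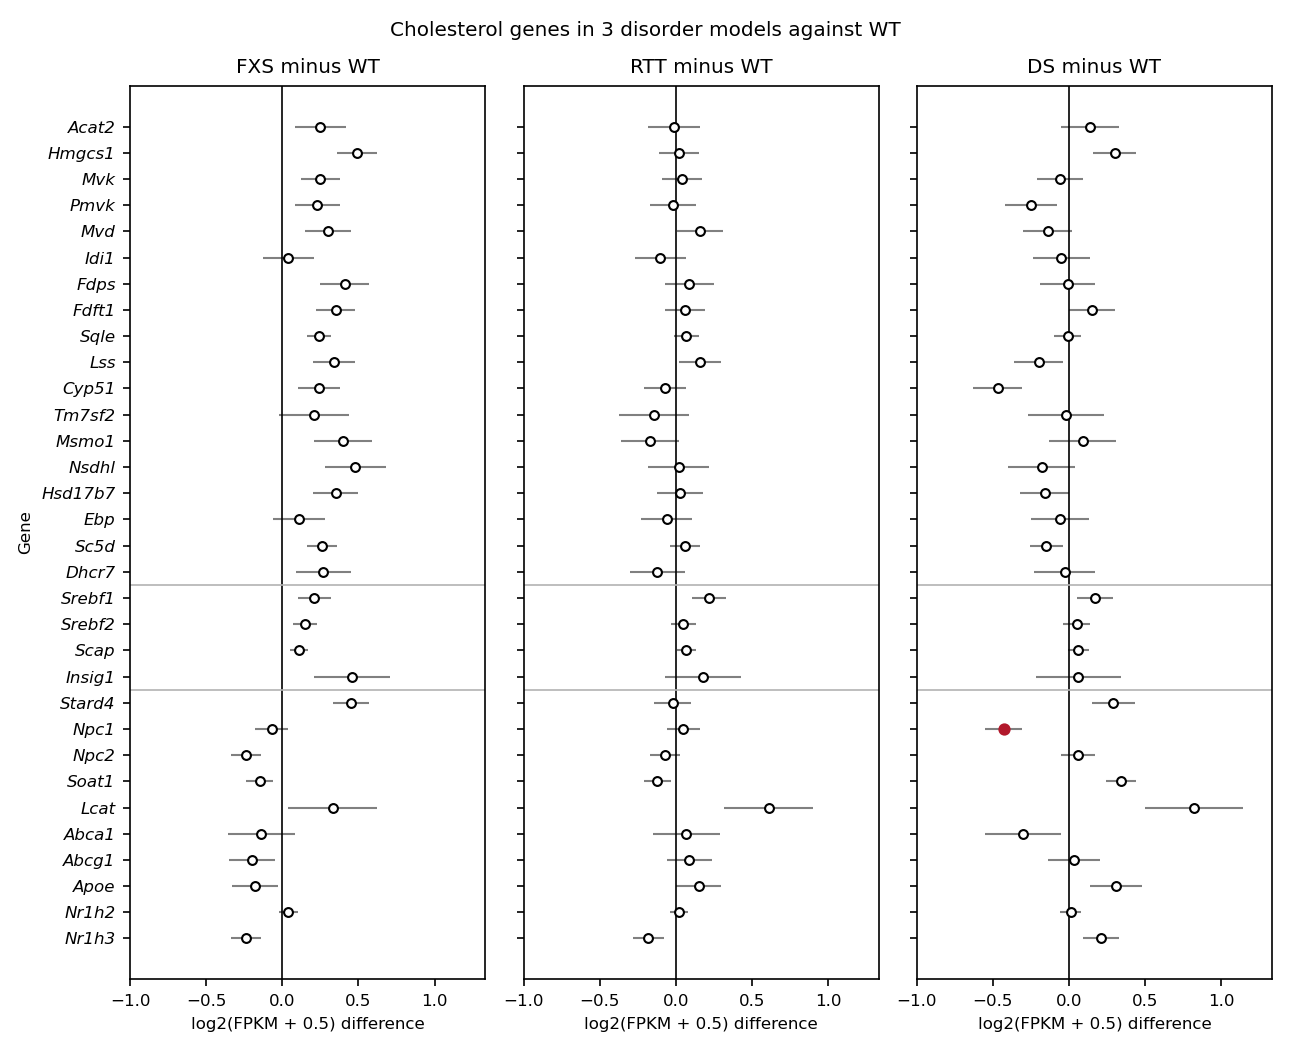
Difference of each of the 32 genes from WT in FXS, RTT and DS on the log2(FPKM + 0.5) scale, with bars of 1 SE; filled red marks an adjusted p under 0.05 by limma. Synthesis genes (top) lie to the right of 0 in FXS and on both sides in RTT and DS, and Npc1 in DS is the 1 filled point.

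Set against each other, the list means give the balance of synthesis and of uptake and efflux in all 9 groups. The balance is the mean log2 level of the 18 enzymes minus that of the 10 uptake and efflux genes in a library, and it can be compared only within a table. It was -0.27 ± 0.27 in FXS, -0.66 ± 0.30 in RTT, -0.79 ± 0.20 in DS and -0.60 ± 0.27 in WT (SD, n = 6, 6, 4 and 6). FXS 31 was the only library of the disorder set with a balance above 0 (0.21). The balance was -0.72 ± 0.22 with BMP6 and -0.42 ± 0.56 in Alone (SD, n = 6 each), where both lists had a higher mean with BMP6. Without Lcat, a setting chosen after seeing the data, the balance was -0.64 ± 0.25 with BMP6 and -0.65 ± 0.60 in Alone. The uptake and efflux mean was higher with BMP6 in 6 of 6 cultures, by 0.22 to 0.83 (0.07 to 0.47 without Lcat), and the synthesis mean by 0.72 in culture 81, 0.49 in culture 120 and -0.02 to 0.10 in the other 4. In the preparation set the balance was -0.87, -0.57 and -0.44 in MD cultured 1, 2 and 3, 0.02, -1.05 and -0.08 in IP cultured 2, 4 and 7, and 0.29, 0.71 and 0.53 in IP acute 2, 4 and 7. All IP acute libraries lay above 0 and above all cultured ones. The summed signal of the 18 enzymes was 816.4 to 1004 in MD cultured, 730.3 to 1475 in IP cultured and 2795 to 3227 in IP acute libraries.

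**Figure D4:**
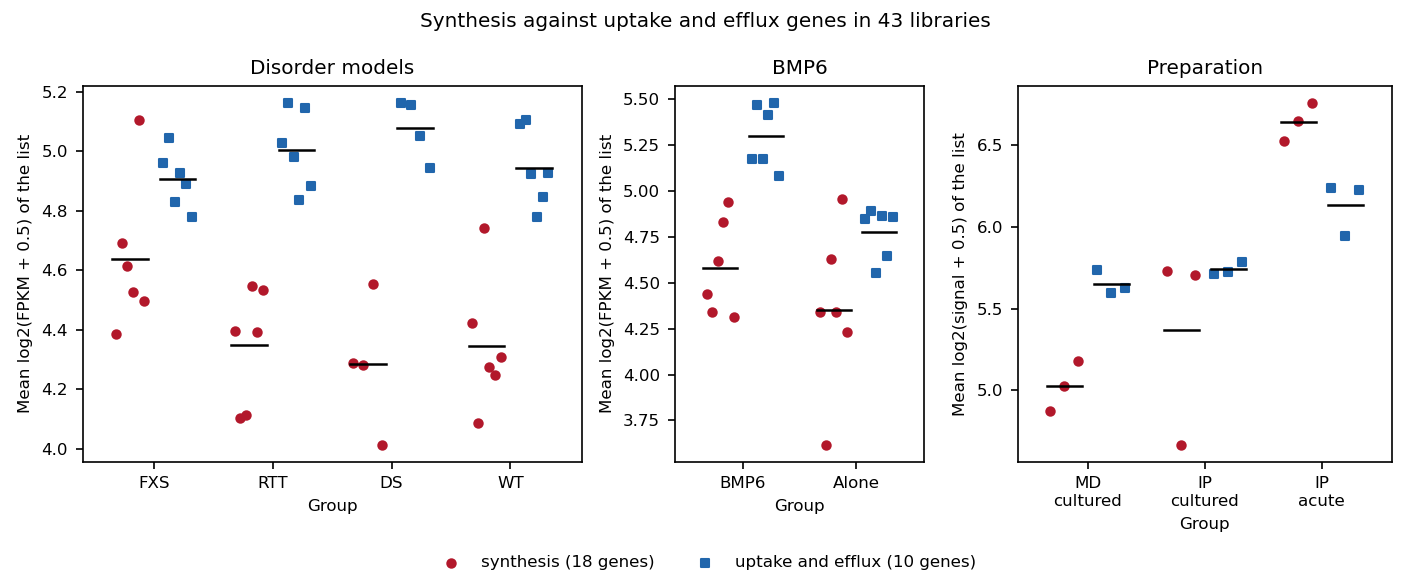
Mean log2 level of the 18 synthesis genes (red circles) and of the 10 uptake and efflux genes (blue squares) in each of the 43 libraries, 1 panel per table, with black bars for group means. Synthesis lies above uptake and efflux in the 3 IP acute libraries. By SD, synthesis varies more between libraries of a group than uptake and efflux does in every group except IP acute.

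The genes also varied together between libraries of the same group. After group means were taken off, 152 of 153 pairs of synthesis genes in the 22 libraries of the disorder set correlated above 0, with a median Pearson r of 0.64, against 0.02 for 19999 random pairs of tested genes. Synthesis genes with uptake and efflux genes had a median r of -0.05, which was a mixture: Stard4 (median r with the 18 enzymes 0.63) lay with them, and Abca1 (-0.49), Npc1 (-0.40), Abcg1 (-0.32) and Apoe (-0.30) against them. Insig1, itself a known SREBP target, had 0.60, while Srebf2 had 0.38, Srebf1 0.27 and Scap 0.19. In the 12 libraries of the BMP6 set the median between enzymes was 0.87, with Insig1 at 0.93 and Stard4 at 0.84, and Apoe (-0.72), Nr1h3 (-0.72) and Abca1 (-0.62) on the opposite side. Each culture enters the BMP6 set with both its libraries, which deviate together, so these are fewer than 12 independent points. In the 9 preparation libraries the median between enzymes was 0.81, with Apoe at -0.83, and without IP cultured 4 and IP cultured 2, the 2 of most extreme synthesis mean, these were 0.55 and -0.18. Npc1 had 0.01 in the BMP6 and 0.68 in the preparation set, so it lay against the enzymes in the disorder set only. Nr1h3 had 0.09 in the disorder and 0.18 in the preparation set, so it lay against them in the BMP6 set only.

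The likeness was smaller without the extreme libraries. Without FXS 31 and WT 30, the 2 of most extreme synthesis mean, the medians in the disorder set were 0.47 between enzymes, 0.47 for Stard4, 0.44 for Insig1 and -0.40 for Abca1. Without Alone 81 and the highest Alone library they were 0.76 between enzymes, 0.61 for Stard4, 0.86 for Insig1 and -0.53 for Apoe in the BMP6 set, but 0.05 for Abca1. Rank correlations over all libraries gave medians of 0.58 and 0.85 between enzymes in the disorder and BMP6 sets. Libraries share depth and cell makeup, so these values are a description.

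**Figure D5:**
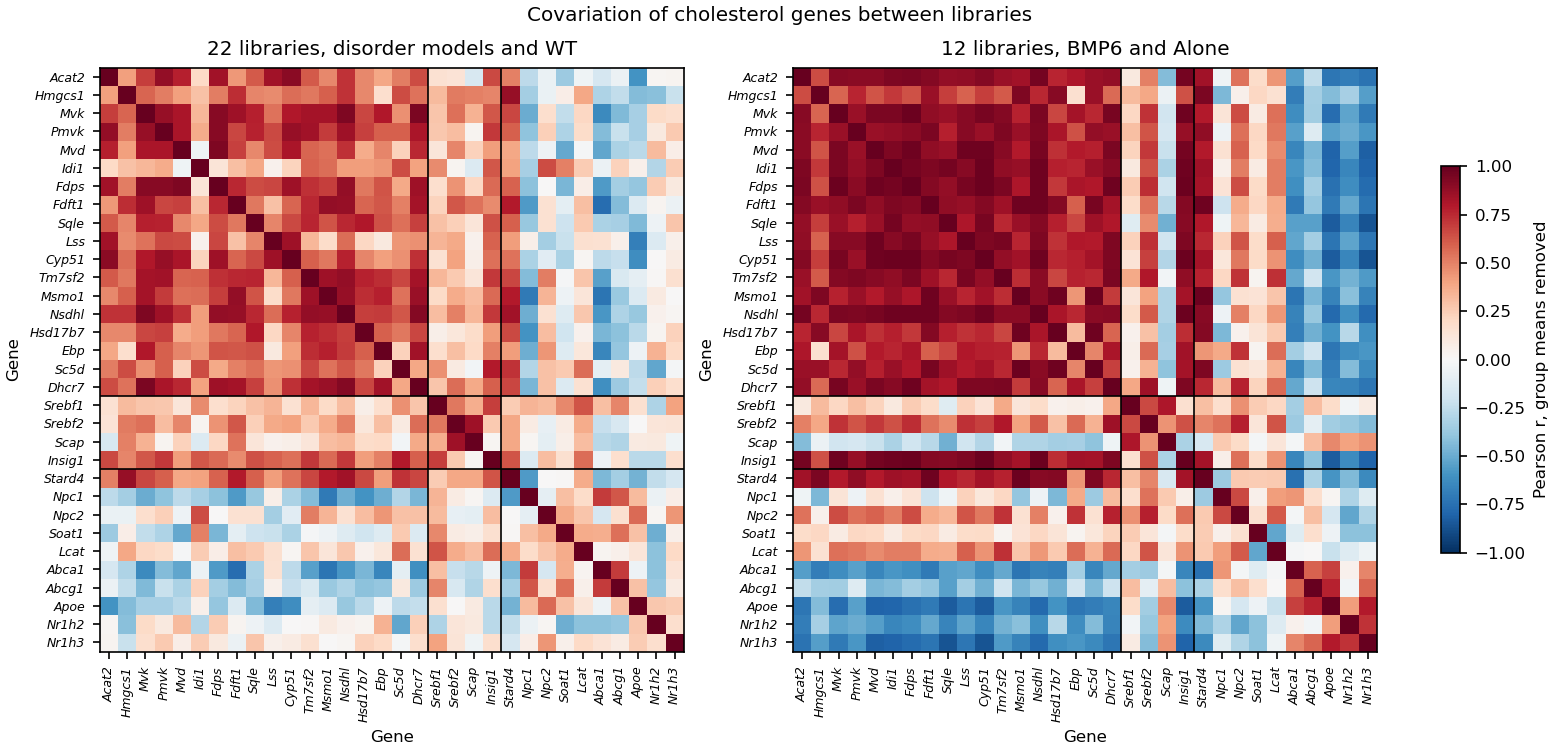
Pearson r between each pair of the 32 genes after group means were removed, in the disorder set (left, 22 libraries) and the BMP6 set (right, 12 libraries); red is positive and blue negative. The block of enzymes at the upper left extends to Insig1 and Stard4, and Abca1 and Apoe run against it.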

How the data were processed

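RNA-seq of 43 mouse astrocyte libraries (stranded poly(A), single-end reads of 50 bases, per the labels) was analysed from 3 tables of 24537 genes. Per the submitters' processing notes, the build was mm10 and the tools were STAR 2.5.3a, HOMER 4.10.4, DESeq2 1.14.1 and FastQC 0.11.8, with no roles given. The disorder and BMP6 tables hold FPKM made by the authors, per the file headers. The authors' deposited preparation table holds a normalised signal whose header names no unit (its sums of value times length were 1.44 to 1.66, against 0.85 to 0.94 in the FPKM tables, in the same unit), so levels were compared within a table only. It also holds log2 fold changes and adjusted p-values made by the authors, which were used only to count their calls.

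The members and the gene lists were chosen with earlier results of these data known. Values were tested as log2(value + 0.5) with limma 3.58.1 in R 4.3.3, in 1 fit with an empirical Bayes trend per table and the group as the only factor, on genes with a value of at least 1 in as many libraries as the smallest group (12780 genes in the disorder, 12185 in the BMP6 and 14101 in the preparation table). Tests were two-sided, with Benjamini-Hochberg adjustment over all genes tested and a threshold of 0.05. The log2 scale understates changes of low genes. Values by library are given for members past the threshold, up to 6 of smallest p per role and comparison, and for the 3 of smallest p where none passed; further members and other genes of the pathway that are named were chosen after their values were seen. Tests were checked on simulated data.

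Where FPKM or signal steps gave whole reads, within 0.08 of a read, they did so for 71.0% to 78.1% of low values, against 5.0% to 11.3% at other depths, so depth was estimated from them but no count test was run. BMP6 and Alone libraries with the same number share a batch label, and their deviations from the group means correlated in all 6 pairs (r = 0.41 to 0.78), so they were treated as paired in an alternative fit. The alternatives were pseudocounts of 0.1 and 1, no filter, a filter at 5, median-of-ratios and quantile scaling, robust empirical Bayes, only the 2 groups compared, the replicate block, and leaving out libraries. Python 3.11.15, numpy 2.4.6, pandas 2.3.3 and matplotlib 3.10.9 were used for the other steps.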

Additional observations from a re-analysis of the deposited data

Results flagged for a closer look

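Of 192 groups of values checked, 15 held a library far from the others, where chance gives about 1 group in 20. Several of the 15 came from the same library, and these genes vary together, so the checks were not independent. Whether 15 exceeds chance was therefore not tested. FXS 31 had the highest value of its group for 6 enzymes and Npc2: Mvk stood at 22.8 FPKM there, against 14.3 to 17.3 in the other FXS libraries, Fdft1 at 21.8 against 15.9 to 17.5, Tm7sf2 at 28.8 against 9.69 to 14.7, and Msmo1 at 184 against 100.1 to 122.4. Nsdhl stood at 50.8 FPKM in FXS 31, against 24.2 to 29.2, Dhcr7 at 50.3 against 29.04 to 32.5, and Npc2 at 102 against 82.6 to 87.8.

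WT 30 was the highest WT library for Tm7sf2 (18.8 FPKM, against 9.03 to 12.0), Nsdhl (34.2, against 15.3 to 22.05) and Dhcr7 (39.2, against 21.7 to 27.6). The untreated library of culture 81 was the lowest for Hmgcs1 (94.4 FPKM, against 201 to 244 in the other 5) and Hsd17b7 (6.39, against 9.96 to 12.0), and its BMP6 library was the highest for Nr1h3 (5.63, against 3.95 to 4.33). RTT 27 was the lowest RTT library for Tm7sf2 (7.9 FPKM, against 10.5 to 12.1), and DS 32 the highest DS library for Acat2 (17.8, against 15.5 to 15.9).

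Differences between the models passed by limma for 4 genes in 5 tests. DS and FXS differed for Cyp51 (log2 -0.71, SE 0.16, limma adjusted p = 0.0154), Soat1 (0.48, SE 0.10, limma adjusted p = 0.00747) and Nr1h3 (0.45, SE 0.12, limma adjusted p = 0.0358). DS and RTT differed for Npc1 (-0.48, SE 0.12, limma adjusted p = 0.0289) and Soat1 (0.46, SE 0.10, limma adjusted p = 0.011).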

How the results depend on the processing

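No called gene changed direction under any alternative run. Uncalled values of Apoe (to 0.30 for MD against IP cultured without IP cultured 4), Ebp and Nr1h3 between preparations did, as did the balance of RTT against WT, and the uptake and efflux median of MD cultured against IP acute was -0.13 unscaled and 0.11 after median-of-ratios scaling. Without Lcat the difference in balance was 0.00 for BMP6 against Alone and -0.02 for MD against IP cultured. The replicate block gave 12 members higher for BMP6 against Alone, and 10 without culture 81, with 0 lower in that fit and 0 lower after median-of-ratios or quantile scaling. With only the 2 groups compared, FXS against WT had 1 member higher, DS against WT 0 lower, DS against FXS 0 higher and 0 lower, and DS against RTT 0 higher and 0 lower. Median-of-ratios and quantile scaling, and leaving out WT 33, FXS 31 and DS 32, gave 0 lower in DS against WT and in DS against RTT, and DS against FXS had 1 higher without those 3 libraries and 1 with the filter at 5. Scaling gave 4 higher for MD against IP cultured (quantile) and 2 for MD cultured against IP acute (both scalings). Quantile scaling moved the median of all genes from -0.04 to 0.17 for IP cultured against IP acute, where the enzymes' median was -1.24 in both, and median-of-ratios scaling moved it from -0.16 to 0.00 for MD against IP cultured, where the enzymes' median was -0.29. IP cultured and IP acute libraries of the same number did not deviate together (r = 0.03, -0.05 and 0.09, best with its own number in 1 of 3), and a block for it gave 2 higher and 12 lower. Leaving out each library in turn gave 2 to 6 higher and 0 to 1 lower for BMP6, 3 to 5 higher and 15 to 22 lower for IP cultured against IP acute, 1 higher and 19 to 21 lower for MD cultured against IP acute, and 2 higher and 8 to 22 lower for MD against IP cultured. It gave 0 to 1 higher and 0 to 1 lower for DS against WT, 0 to 3 and 0 to 3 against FXS, and 0 to 2 and 0 to 1 against RTT, and 0 to 2 lower for RTT against FXS. The difference in balance ran from -0.47 to -0.15 for BMP6, -1.08 to -0.54 for IP cultured and -1.25 to -1.02 for MD cultured against IP acute, and -0.60 to -0.06 for MD against IP cultured. It ran from 0.23 to 0.41 for FXS, -0.14 to 0.02 for RTT and -0.29 to -0.11 for DS against WT, from -0.62 to -0.43 for DS and -0.46 to -0.29 for RTT against FXS, and from -0.23 to -0.06 for DS against RTT. The causes were not tested. With 3 to 6 libraries a group, small differences were not detectable.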
